A study of Homo sapiens with 24 samples.

Results

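DRAXIN, BTBD19, CAMK4, MYO6 and SFN were described here as genes listed near 0 in untreated cells of at least 1 line and raised by treatment. They are 5 of the 63299 genes in the table. Their treated and untreated values chose them, so those values are given as a description, without a test. The description held in both lines for DRAXIN, BTBD19 and SFN only. CAMK4 and MYO6 were near 0 in A2780 alone, whereas untreated A2780cis cells expressed both and their levels there were lower after treatment.

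RNA was sequenced from human ovarian cancer cell lines, the platinum-sensitive A2780 and its platinum-resistant derivative A2780cis. Cells were left untreated or received 1 μM 5-FdU-ECyd, a duplex prodrug that joins the antimetabolites 2'-deoxy-5-fluorouridine and 3'-C-ethynylcytidine and releases compounds that block DNA and RNA synthesis. Both lines were collected after 6 h and after 12 h, which gives 8 groups of 3 libraries, 24 in all. The comparisons ask which genes respond to the drug at each time and whether the line matters. The labels do not say whether the 3 libraries of a group came from separate cultures, although the study calls them biological triplicates, and p-values measure only the spread between these libraries. Libraries held 11077368 to 21901406 counts. The mesenchymal marker VIM had a median of 2259 CPM (counts scaled by library size) in untreated A2780 and 2395 CPM in untreated A2780cis, while the Müllerian marker PAX8 and the epithelial cadherin CDH1 had a median of 0 in both lines, and the leukocyte and endothelial markers PTPRC and PECAM1 were at 0 in every untreated library. The epithelial marker EPCAM had a median of 0.776 CPM in A2780 and 0.237 CPM in A2780cis. The epithelial keratins were higher in untreated A2780cis than in A2780, with medians of 25.4 against 1.65 CPM for KRT18 and 4.55 against 0.926 CPM for KRT8, and the mesenchymal cadherin CDH2 was lower, with 4.90 against 47.5 CPM.

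The genes have separate functions. DRAXIN encodes a secreted axon guidance protein that binds netrin and the netrin receptor DCC and antagonises canonical Wnt signalling. SFN encodes 14-3-3 sigma, a p53-inducible protein that holds cells in G2 after DNA damage. CAMK4 is a calcium/calmodulin-dependent kinase that phosphorylates the transcription factor CREB. MYO6 is the myosin motor that walks towards the minus end of actin filaments and serves endocytosis. BTBD19 encodes a BTB domain protein whose function is little known. Because a gene can collect reads when transcription runs on past the end of the gene before it, the genes upstream on the same strand are given beside each gene.

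The promoters are shown as a description of genes with such different roles. All 5 genes lie on the plus strand and matched an entry in the RefSeq table (GRCh38.p14), and the 250 bases before each start are printed 5′ to 3′. Capitals mark each match, on either strand, to the TATA box core TATAAA, to the CAAT box core CCAAT, to the GC box core GGGCGG or to the CRE half-site TGACGT. No match lay on top of another. The windows are chr1:11691460-11691709 for DRAXIN, chr1:44808273-44808522 for BTBD19, chr5:111223333-111223582 for CAMK4, chr6:75748989-75749238 for MYO6 and chr1:26862899-26863148 for SFN. CAMK4 has 3 windows in that table, and the one nearest to its start in GENCODE 44 is shown.
DRAXIN: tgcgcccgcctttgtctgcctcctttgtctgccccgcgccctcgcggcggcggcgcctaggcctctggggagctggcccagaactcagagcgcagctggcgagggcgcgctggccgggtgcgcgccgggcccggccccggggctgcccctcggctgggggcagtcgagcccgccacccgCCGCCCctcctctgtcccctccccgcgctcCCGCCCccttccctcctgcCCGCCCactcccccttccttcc
BTBD19: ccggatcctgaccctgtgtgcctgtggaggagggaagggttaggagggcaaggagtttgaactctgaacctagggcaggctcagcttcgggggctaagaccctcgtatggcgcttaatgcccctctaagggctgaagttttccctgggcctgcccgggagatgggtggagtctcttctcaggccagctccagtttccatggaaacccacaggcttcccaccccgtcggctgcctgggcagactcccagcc
CAMK4: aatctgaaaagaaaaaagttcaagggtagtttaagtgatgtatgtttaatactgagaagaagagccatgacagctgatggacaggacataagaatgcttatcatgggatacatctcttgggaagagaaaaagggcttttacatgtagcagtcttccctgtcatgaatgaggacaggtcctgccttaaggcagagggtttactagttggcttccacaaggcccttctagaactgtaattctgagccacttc
MYO6: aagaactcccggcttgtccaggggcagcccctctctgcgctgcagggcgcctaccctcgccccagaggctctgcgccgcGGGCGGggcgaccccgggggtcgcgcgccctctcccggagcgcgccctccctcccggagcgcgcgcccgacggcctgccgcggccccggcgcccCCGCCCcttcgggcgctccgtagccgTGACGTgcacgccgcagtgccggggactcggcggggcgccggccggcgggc
SFN: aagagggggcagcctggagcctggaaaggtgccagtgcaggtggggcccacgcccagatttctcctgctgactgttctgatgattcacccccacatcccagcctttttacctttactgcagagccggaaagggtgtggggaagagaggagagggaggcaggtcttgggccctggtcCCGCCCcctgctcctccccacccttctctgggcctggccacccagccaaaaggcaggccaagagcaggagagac
The windows shared little base composition. MYO6 had 41 CpG and 82.0% GC and DRAXIN 28 CpG and 78.8% GC, against a median of 11 CpG and 58.0% GC over 35116 windows of that length. BTBD19 had 7 CpG, SFN 3 and the printed CAMK4 window 0, with 61.6%, 62.8% and 42.0% GC. The other CAMK4 windows had 11 and 30 CpG, with a match to CCAAT in the former and to GGGCGG in the latter. GGGCGG was found 3 times before DRAXIN, at -71, -41 and -22 on the minus strand, 2 times before MYO6, at -171 on the plus and -77 on the minus strand, and at -74 on the minus strand before SFN. It was present in 42.6% of all windows. TGACGT was present before MYO6 alone, at -51 on the plus strand, and in 7.1% of all windows. TATAAA (10.7% of windows), CCAAT (32.0%) and the p53 half-site (5.57%) matched none of the 5 printed windows. These letters say nothing of factors bound there or elsewhere.

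DRAXIN (ENSG00000162490.6, chr1:11691710-11725857, coordinates of GENCODE 44 on GRCh38) had its highest levels in treated A2780. Untreated A2780 libraries held 0.933, 1.14 and 0.818 CPM at 6 h and 0.330, 0.637 and 0.925 CPM at 12 h. Treated A2780 libraries held 11.9, 13.1 and 13.3 CPM at 6 h and 59.9, 72.2 and 71.9 CPM at 12 h. The groups did not overlap at either time. The mean at 12 h was 68.0 ± 7.005 CPM treated (SD, n = 3) against 0.631 ± 0.297 CPM untreated, a ratio of 108 with a 95% exact counting interval of 75.1 to 152.

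In A2780cis, DRAXIN started from a similar level and reached a lower one. Untreated libraries held 1.20, 1.10 and 0.491 CPM at 6 h and 0.963, 0.618 and 0.648 CPM at 12 h. Treated libraries held 2.87, 2.48 and 3.11 CPM at 6 h and 17.6, 18.1 and 17.5 CPM at 12 h. Again no treated library overlapped an untreated one. Fitted log2 fold changes (FC) were 3.73 (SE 0.26) at 6 h and 6.69 (SE 0.25) at 12 h in A2780, and 1.63 (SE 0.28) and 4.55 (SE 0.23) in A2780cis. The FC in A2780cis minus that in A2780 was -2.09 (SE 0.38) at 6 h and -2.14 (SE 0.34) at 12 h on the log2 scale. CPM is a share of a library's RNA, so a change in total RNA per cell was not measured, and fewer expressing cells cannot be told apart from less RNA per cell.

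SFN (ENSG00000175793.11, chr1:26863149-26864456) followed the same course from a lower start. In A2780 the untreated libraries held 1, 2 and 1 counts at 6 h and 5, 4 and 12 counts at 12 h. With treatment SFN had 2.64, 1.48 and 1.93 CPM at 6 h and 21.3, 27.7 and 30.7 CPM at 12 h. In A2780cis the untreated libraries held 6, 2 and 2 counts at 6 h and 5, 6 and 7 counts at 12 h. Treated A2780cis libraries had 0.797, 0.730 and 1.32 CPM at 6 h and 7.49, 7.87 and 8.29 CPM at 12 h. Every treated library lay above every untreated library of its line and time, although at 6 h in A2780cis the gap was narrow. The 12 h ratio was 67.6 (counting interval 43.7 to 109) in A2780 and 24.8 (15.6 to 42.7) in A2780cis. The log2 FC was 4.07 (SE 0.72) and 6.02 (SE 0.34) in A2780 at 6 h and 12 h, and 1.69 (SE 0.50) and 4.61 (SE 0.37) in A2780cis. Without A2780cis control 6 h replicate 1, which held 6 of the 10 untreated counts, the 6 h value in A2780cis was 2.41.

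BTBD19 (ENSG00000222009.8, chr1:44808523-44815585) was higher already at 6 h and reached overlapping levels in both lines at 12 h. Untreated A2780 libraries held 0, 5 and 9 counts at 6 h and 3, 4 and 6 at 12 h. Untreated A2780cis libraries held 1, 3 and 0 counts at 6 h and 1, 2 and 3 at 12 h. Treated A2780 libraries had 11.9, 9.63 and 11.3 CPM at 6 h and 14.6, 16.7 and 12.8 CPM at 12 h. Treated A2780cis libraries had 8.29, 8.84 and 6.69 CPM at 6 h and 14.5, 21.2 and 17.7 CPM at 12 h. No groups overlapped, and at 12 h the treated libraries of the 2 lines did. The log2 FC was 4.76 (SE 0.50) and 5.83 (SE 0.51) in A2780, and 5.93 (SE 0.87) and 7.30 (SE 0.72) in A2780cis, for 6 h and 12 h. The ratio at 12 h in A2780cis was 166, with a counting interval of 78.2 to 467 that reflects its 6 untreated counts. Single untreated libraries set the size of these folds at 6 h: the log2 FC in A2780 was 4.06 without control replicate 1 and 5.68 without control replicate 3, and in A2780cis 7.26 without control replicate 2 and 5.30 without control replicate 3.

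MYO6 (ENSG00000196586.13, chr6:75749201-75919537) differed between the lines before any treatment. Untreated A2780 libraries held 8, 4 and 8.5 counts at 6 h and 3, 6 and 10 at 12 h. Untreated A2780cis libraries held 89.6, 103 and 83.8 CPM at 6 h and 75.1, 72.8 and 66.7 CPM at 12 h. Treatment in A2780 gave 1.45, 0.926 and 1.85 CPM at 6 h and 6.87, 5.96 and 6.56 CPM at 12 h. Treatment in A2780cis gave 77.1, 67.9 and 70.2 CPM at 6 h and 43.3, 35.9 and 30.0 CPM at 12 h. The groups did not overlap in any of the 4 comparisons, with treated libraries higher in A2780 and lower in A2780cis. The log2 FC was 1.34 (SE 0.37) and 4.11 (SE 0.34) in A2780 and -0.36 (SE 0.13) and -0.97 (SE 0.13) in A2780cis. Treated A2780 at 12 h, at 6.46 ± 0.460 CPM (SD, n = 3), still lay below treated A2780cis, at 36.4 ± 6.68 CPM.

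CAMK4 (ENSG00000152495.10, chr5:111223653-111494886) had the same pattern with the fewest counts in A2780. The untreated A2780 libraries held 4, 1 and 3 counts at 6 h and none at 12 h. Treated A2780 libraries held 6, 7 and 6 counts at 6 h and 8, 11 and 24 at 12 h, the last group averaging 0.755 ± 0.356 CPM (SD, n = 3). At 6 h the ratio was 2.45, and its counting interval of 0.978 to 6.18 included no change. At 12 h the treated level was at least 4.30-fold higher than a floor of 3 counts per library. The fitted log2 FC there was 6.57, which depends on how zero counts are treated, is not a bound and has no SE. In A2780cis the untreated libraries held 26.3, 32.8 and 27.5 CPM at 6 h and 25.04, 22.3 and 20.5 CPM at 12 h, and the treated libraries 17.6, 15.8 and 17.1 CPM and 11.7, 10.4 and 8.66 CPM. The log2 FC was -0.77 (SE 0.14) at 6 h and -1.14 (SE 0.15) at 12 h. CAMK4 therefore stayed below 1 CPM on average in treated A2780 while remaining above 10 CPM on average in treated A2780cis.

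**Figure D1:**
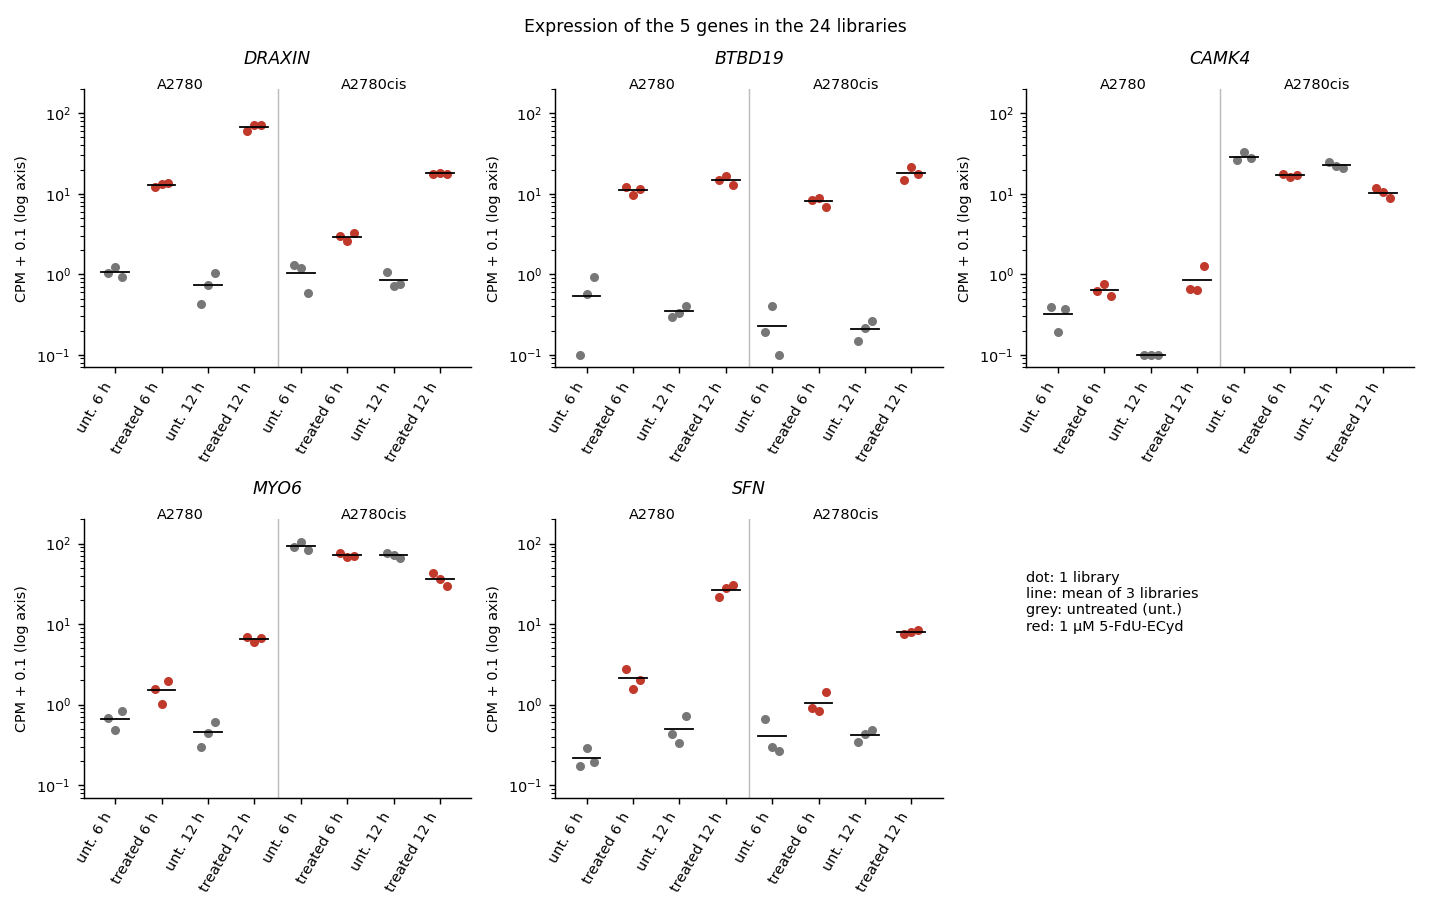
Level of each gene in every library, as CPM plus 0.1 on a log axis, by line, treatment (grey untreated, red 1 μM 5-FdU-ECyd) and time, with a line at the mean of 3 libraries. DRAXIN, BTBD19 and SFN are higher with treatment in both lines, whereas CAMK4 and MYO6 are higher, from near 0, in A2780 and lower with treatment in A2780cis.

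Treated libraries lay apart from untreated ones in 20 of 20 comparisons of gene, line and time, higher in 16 and lower in 4. How many of all genes lay apart in this way was not counted. The shares that follow are calls of a test, a different measure, and are no background for that count. In the whole table of 20240 tested genes, adjusted p was at most 0.05 (Benjamini-Hochberg adjusted, from the quasi-likelihood test of edgeR) for 16.0% higher and 13.4% lower in A2780 at 6 h, and for 28.6% higher and 26.1% lower at 12 h. In A2780cis these shares were 14.4% higher and 16.3% lower at 6 h, and 31.0% higher and 28.9% lower at 12 h. As the genes were chosen on these contrasts, nothing is read from their own count. The number called in A2780 at 6 h rested in part on single libraries: 5950 genes passed, but 3805 without A2780 control replicate 1 and 3963 without treated replicate 1.

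The genes differed in how much of the 12 h level was present at 6 h. In A2780 the treated 6 h mean was 7.60% of the treated 12 h mean for SFN, 18.8% for DRAXIN, 21.8% for MYO6, 70.9% for CAMK4 and 74.5% for BTBD19. In A2780cis it was 12.0% for SFN, 15.9% for DRAXIN and 44.5% for BTBD19. BTBD19 thus had the largest share of its 12 h level at 6 h among the 3 genes that were higher in both lines, in each line.

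Many genes differed between 12 h and 6 h without the drug. Untreated libraries held 11077368 to 14372622 counts at 6 h and 15253875 to 21366058 at 12 h. Time in culture cannot be told apart from this or other differences between the libraries of the 2 times. Of all tested genes 26.9% passed in A2780 and 39.9% in A2780cis, and these shares rested on single libraries. The count went from 5435 to 1846 without A2780 control 6 h replicate 1 and to 2324 without A2780 control 12 h replicate 3, and in A2780cis from 8083 to 4985 without control 12 h replicate 3. Untreated levels were among the values that chose the 5 genes, so their own values over time are a description. In A2780 the log2 FC was -0.55 (SE 0.33) for DRAXIN, -0.65 (SE 0.68) for BTBD19, -0.61 (SE 0.44) for MYO6 and 1.77 (SE 0.77) for SFN, which went from 4 counts to 21 over 3 libraries. CAMK4 went from 8 counts to 0. In A2780cis it was -0.28 (SE 0.32) for DRAXIN, -0.19 (SE 1.11) for BTBD19, -0.36 (SE 0.13) for MYO6, 0.06 (SE 0.56) for SFN and -0.35 (SE 0.14) for CAMK4.

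The genes upstream on the same strand were tested because the choice of genes did not use them. Of the 10 genes, the 2 nearest to each of the 5, 9 had enough counts to test. In A2780, 3 were higher and 1 lower at 6 h, and 3 higher and 2 lower at 12 h. In A2780cis, 2 were higher and 2 lower at 6 h, and 4 higher and 3 lower at 12 h. Downstream, 8 of 10 could be tested, with 1 higher and 2 lower at each time in A2780, 2 higher and 3 lower at 6 h in A2780cis, and 3 higher and 4 lower at 12 h. These counts are small and lie beside background shares of 13.4% to 31.0% over the 2 directions. PLK3 and FBXO44 were higher in all 4 comparisons, and WDR36 was lower in all 4.

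PLK3, a polo-like kinase that responds to stress and p53, was the only nearest upstream gene that passed as higher at both times in both lines. It ends 2532 bases before BTBD19. Its log2 FC was 2.38 (SE 0.16, adjusted p = 8.57e-11, edgeR) at 6 h and 3.14 (SE 0.15, adjusted p = 5.14e-15) at 12 h in A2780. In A2780cis it was 2.33 (SE 0.16, adjusted p = 7.46e-11, edgeR) and 3.10 (SE 0.14, adjusted p = 5.5e-15). In A2780 at 12 h PLK3 went from 5.87, 4.81 and 5.81 CPM untreated to 42.3, 52.1 and 50.9 CPM treated. The groups were far apart.

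Between PLK3 and BTBD19 lies DYNLT4, a dynein light chain gene on the opposite strand whose end overlaps that of PLK3. It also passed as higher in A2780 at 6 h (log2 FC 3.02, SE 0.89, adjusted p = 0.00156, edgeR), in A2780 at 12 h (3.52, SE 0.69, adjusted p = 1.89e-06) and in A2780cis at 12 h (4.31, SE 0.87, adjusted p = 2.91e-07), but not in A2780cis at 6 h (1.58, SE 0.82, adjusted p = 0.0967). Its counts in treated libraries were low, 5, 5 and 17 in A2780 at 6 h and 15, 26 and 25 at 12 h. The counting options listed by the study name no strand setting and let a read count for several overlapping genes, so reads of DYNLT4 and of transcription from the PLK3 strand cannot be told apart.

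Per exon length, BTBD19 was a larger share of PLK3 in treated than in untreated libraries. In untreated libraries its level was 8.73% ± 8.19 (SD, n = 3) of PLK3's at 6 h and 4.30% ± 0.964 at 12 h in A2780, and 2.67% ± 3.04 and 1.62% ± 0.697 in A2780cis. In treated libraries it was 43.1% ± 7.62 and 29.2% ± 4.65 in A2780, and 33.2% ± 9.69 and 32.5% ± 2.55 in A2780cis. Each treated library lay above every untreated one in its line and time. DYNLT4, nearer to PLK3, was at 5.98% ± 0.120 of PLK3's level in treated A2780 at 12 h and at 5.72% ± 0.830 in treated A2780cis. BTBD19 per exon length was thus at 487% ± 68.7 of DYNLT4 in the former group and 581% ± 128 in the latter. Treated and untreated values chose the 5 genes, so these shares, and those of the other genes below, are a description. Counts over exons do not show reads between genes, so readthrough from PLK3 was not tested.

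**Figure D2:**
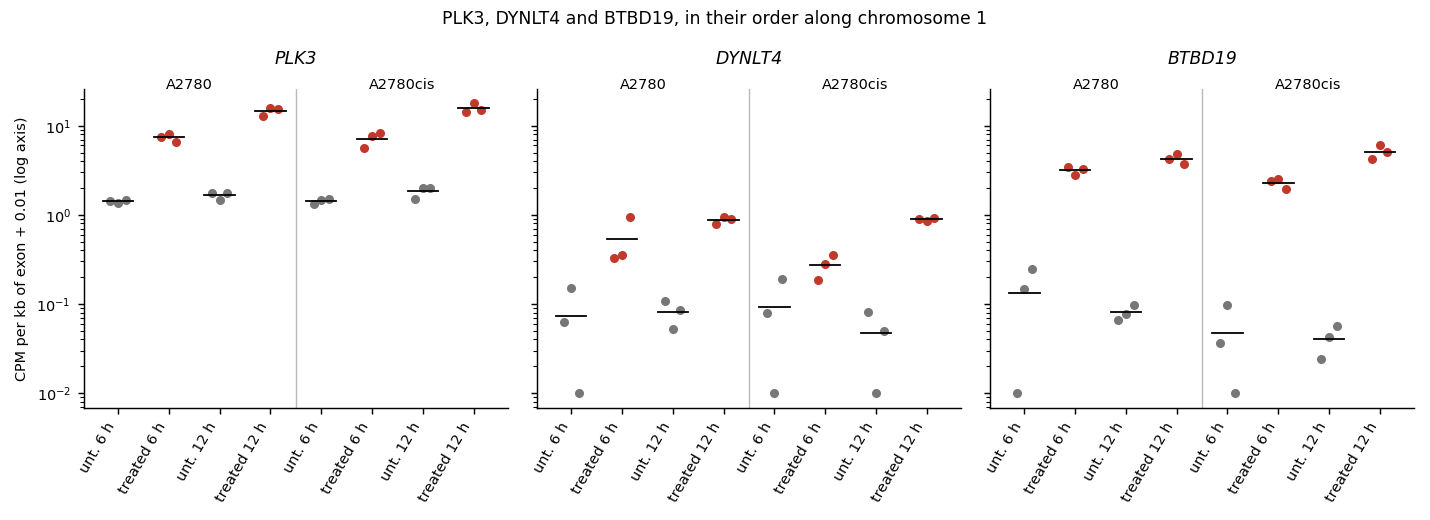
CPM per kb of exon, plus 0.01 on a log axis, of PLK3, the opposite-strand DYNLT4 and BTBD19 in every library (grey untreated, red treated, line at the mean of 3). All 3 genes are higher in treated libraries at 12 h, with BTBD19 at 29.2% of PLK3's level in A2780 and 32.5% in A2780cis.

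SFN lies 5544 bases after ZDHHC18, a palmitoyltransferase gene. ZDHHC18 was higher in A2780 at 6 h (log2 FC 0.47, SE 0.14, adjusted p = 0.011, edgeR), did not pass in A2780 at 12 h (-0.22, SE 0.13, adjusted p = 0.155) or in A2780cis at 6 h (-0.09, SE 0.14, adjusted p = 0.683), and was lower in A2780cis at 12 h (-0.66, SE 0.13, adjusted p = 0.000134). SFN per exon length went from 4.75% ± 1.91 of ZDHHC18 (SD, n = 3) to 380% ± 45.7 at 12 h in A2780, and from 3.68% ± 0.613 to 146% ± 9.60 in A2780cis. Treated SFN at 12 h thus exceeded the gene before it, per exon length, in every library. PIGV, a mannosyltransferase gene further upstream, was higher at 12 h in A2780 (log2 FC 0.37, SE 0.12, adjusted p = 0.01, edgeR) and in A2780cis (0.97, SE 0.12, adjusted p = 1.03e-07).

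DRAXIN lies 17355 bases after FBXO6, an F-box protein gene with very few counts. FBXO6 did not pass in any treated comparison, with log2 FC of 0.60 (SE 0.69) and 0.77 (SE 0.41) in A2780 and 1.10 (SE 0.67) and 0.29 (SE 0.38) in A2780cis. FBXO44, the next F-box gene upstream at 28382 bases, was higher in A2780 at 6 h (log2 FC 1.09, SE 0.15, adjusted p = 7.99e-06, edgeR) and 12 h (1.10, SE 0.14, adjusted p = 4.47e-07), and in A2780cis at 6 h (0.94, SE 0.16, adjusted p = 9.18e-05) and 12 h (1.06, SE 0.14, adjusted p = 7.24e-07). At 12 h in treated A2780, DRAXIN had 9.23 CPM per kb of exon, FBXO6 0.377 and FBXO44 14.2. MAD2L2, an opposite-strand gene that overlaps the start of DRAXIN and can share reads with it in this counting, was higher at 6 h in A2780 (log2 FC 0.58, SE 0.17, adjusted p = 0.0103, edgeR) and in A2780cis (0.43, SE 0.16, adjusted p = 0.041) and did not pass at 12 h.

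The genes before CAMK4 and MYO6 were lower in most comparisons. WDR36, a ribosome biogenesis gene 93150 bases before CAMK4, was lower in A2780 at 6 h (log2 FC -0.87, SE 0.13, adjusted p = 1.42e-05, edgeR) and 12 h (-1.14, SE 0.13, adjusted p = 4.21e-08), and in A2780cis at 6 h (-0.55, SE 0.12, adjusted p = 0.00155) and 12 h (-1.41, SE 0.13, adjusted p = 7.39e-10). SENP6, a SUMO protease gene 30919 bases before MYO6, was lower in A2780 at 12 h (-0.41, SE 0.11, adjusted p = 0.0027, edgeR), and in A2780cis at 6 h (-0.91, SE 0.11, adjusted p = 6.44e-07) and 12 h (-1.56, SE 0.11, adjusted p = 9.57e-12). In A2780 at 6 h SENP6 did not pass (-0.27, SE 0.11, adjusted p = 0.0634). MYO6 and SENP6 were thus both lower with treatment in A2780cis at 12 h, SENP6 by more, and MYO6 went from 35.0% ± 1.63 of SENP6 per exon length (SD, n = 3) to 52.2% ± 4.44. CAMK4 went from 9.51% ± 0.175 of WDR36 to 11.5% ± 0.546 in the same comparison. In A2780 at 12 h MYO6 went from 0.366% ± 0.217 of SENP6 to 8.45% ± 0.659.

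**Figure D3:**
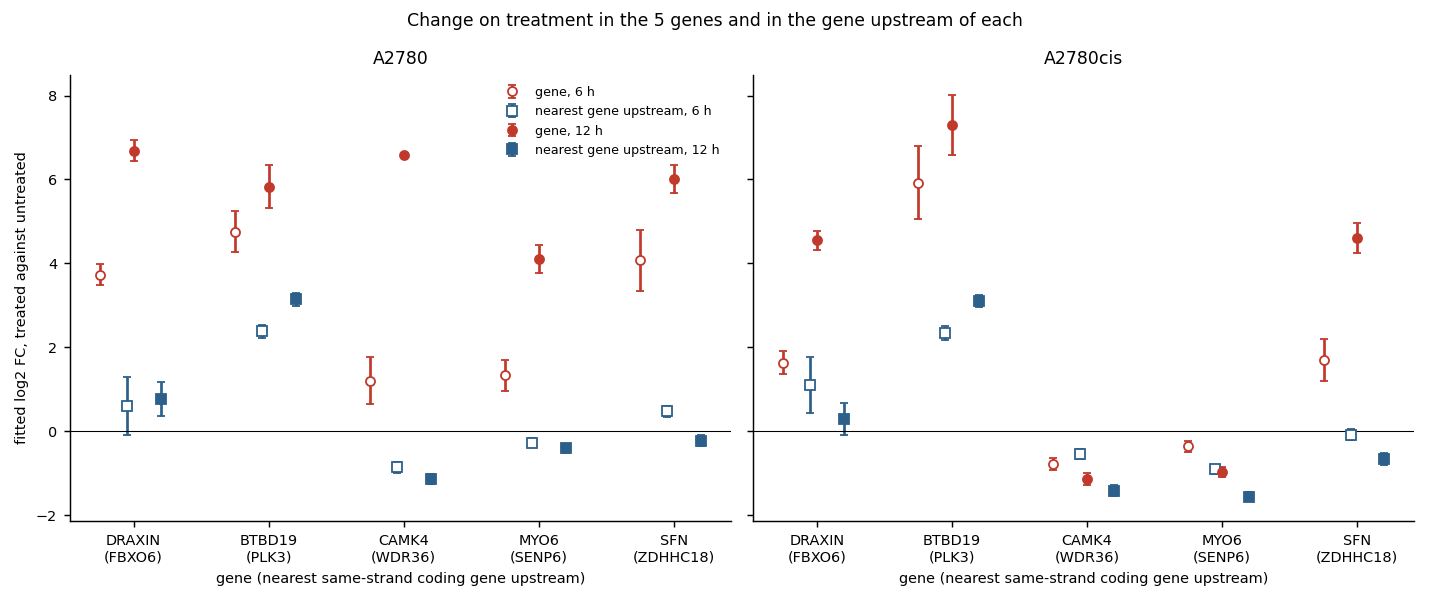
Fitted log2 FC on treatment (bars, SE; none for CAMK4 in A2780 at 12 h, where the untreated group had no counts) of the 5 genes (red circles) and of the nearest same-strand coding gene upstream (blue squares), at 6 h (open) and 12 h (filled). PLK3 is the only upstream gene above 2, while WDR36 and SENP6 lie below 0 in each comparison.

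**Figure D4:**
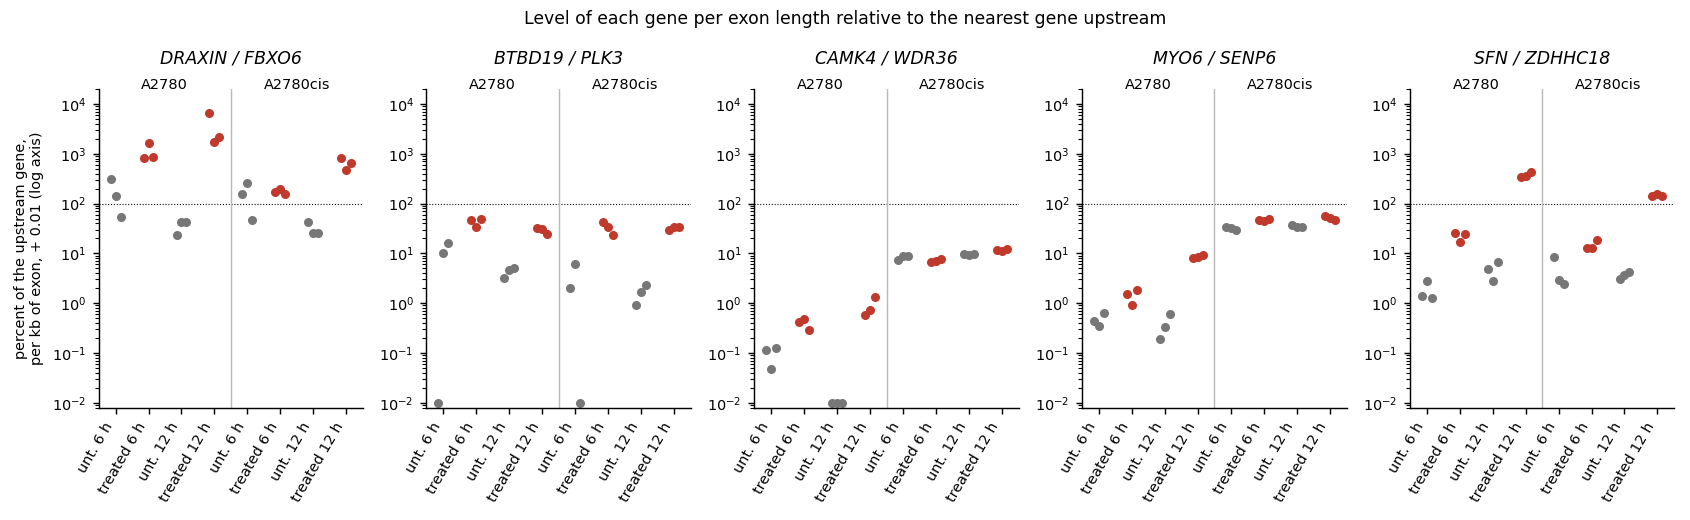
Level of each gene as a percent of its nearest upstream gene, per kb of exon, plus 0.01 on a log axis, in every library (grey untreated, red treated). At 12 h treated DRAXIN and SFN lie above 100% (dotted line), and BTBD19, CAMK4 and MYO6 below it.

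Silent genes as a whole, with any of the 5 genes that qualify, give the setting. Genes matched to the annotation with at most 3 counts in each of the 6 untreated libraries of a line were counted, and those with at least 1 CPM in all 3 treated libraries of 12 h were called on. In A2780 48 of 33673 were on (0.143%), and in A2780cis 47 of 35056 (0.134%). Of those with a same-strand coding gene ending within 10 kb upstream, 9 of 2344 were on in A2780 (0.384%), against 39 of 31329 of the others (0.124%). In A2780cis it was 13 of 2446 (0.531%) against 34 of 32610 (0.104%). The difference was not tested. BTBD19 in A2780cis was the only one of the 5 genes this strict to begin with, and it is among those 13. With silent taken as an untreated mean below 1 CPM, a limit chosen after seeing the data, all 5 genes were silent in A2780 and 4 were on, all but CAMK4, among 859 of 40906 (2.10%). DRAXIN, BTBD19 and SFN were silent and on in A2780cis, among 865 of 41508 (2.08%). The untreated libraries nearest to that limit were those of DRAXIN, which reached 1.14 CPM in A2780 and 1.20 CPM in A2780cis.

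The relatives of each gene were described from lists, without the 5 genes themselves, beside a median log2 FC over all tested genes of 0.02 in A2780 and 0.04 in A2780cis at 12 h. Over all tested genes 28.6% were higher and 26.1% lower in A2780 at that time, and 31.0% and 28.9% in A2780cis. Of the other 6 14-3-3 genes none was higher at 12 h, while 5 were lower in A2780 (median log2 FC -0.39) and 6 in A2780cis (-0.37). YWHAE, for example, fell in A2780 (log2 FC -0.82, SE 0.10, adjusted p = 1.26e-07, edgeR), as did YWHAZ (-0.44, SE 0.10, adjusted p = 0.000877).

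SFN belongs also to a list of p53 target genes. Without SFN, beside 16.0% of all tested genes higher at 6 h in A2780 and 14.4% in A2780cis, 31 of 33 tested were higher in A2780 at 6 h and 33 at 12 h, and 26 and 30 in A2780cis, with median log2 FC of 1.84 and 1.48 at 12 h and none lower. CDKN1A, the cyclin-dependent kinase inhibitor p21, had log2 FC of 2.89 (SE 0.10, adjusted p = 5.34e-17, edgeR) in A2780 and 4.12 (SE 0.11, adjusted p = 6.9e-19) in A2780cis at 12 h. PLK3 is on this list as well. The list was drawn up with earlier results of these data known, so it is no independent support for its direction.

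For the next 4 lists the shares over all tested genes at 12 h were 28.6% higher and 26.1% lower in A2780. In A2780cis they were 31.0% and 28.9%. Of 18 tested calmodulin-dependent kinases, calmodulins and CREB factors, 2 were higher and 7 lower in A2780 at 12 h. In A2780cis 1 was higher and 11 lower (median log2 FC -0.58). CREB1, which CAMK4 phosphorylates, was lower in both lines at 12 h, with log2 FC of -0.55 (SE 0.12, adjusted p = 0.000567, edgeR) and -0.97 (SE 0.13, adjusted p = 4.35e-07). Of 20 tested unconventional myosins and MYO6 adaptors, 7 were higher and 4 lower in A2780, and 7 and 8 in A2780cis. Among them OPTN, an autophagy adaptor that binds MYO6, was higher in both lines (1.88, SE 0.11, adjusted p = 2.82e-13, edgeR, and 1.29, SE 0.12, adjusted p = 1.83e-09). Of 11 tested netrin and Wnt receptor partners, 3 were higher and 5 lower in A2780, and 1 and 6 in A2780cis. NTN1, the ligand that DRAXIN binds, was higher in A2780 at 12 h (3.00, SE 0.45, adjusted p = 1.87e-07, edgeR) and lower in A2780cis (-0.85, SE 0.16, adjusted p = 7.24e-05). DKK1, a Wnt antagonist, was lower in both (-1.60, SE 0.09, adjusted p = 1.21e-13, edgeR, and -0.96, SE 0.08, adjusted p = 5.31e-10). Of 7 tested BTBD genes, 1 was higher and 2 lower in each line.

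Across the 24 libraries the 5 genes fell into a pair and a trio. Pearson correlations of log2 CPM, which are descriptions over libraries of 8 groups, were 0.978 for CAMK4 with MYO6, 0.954 for DRAXIN with SFN, 0.883 for DRAXIN with BTBD19 and 0.830 for BTBD19 with SFN. Between the pair and the trio they ran from -0.082 to 0.098. Of all tested genes, the 3 most like DRAXIN were JCAD (0.983), PRKAB1 (0.972) and SMIM3 (0.971), and those most like SFN were TP53I3 (0.977), ABHD4 (0.971) and DUSP3 (0.969). BTBD19 was closest to TAS1R1 (0.971), BTG2 (0.971) and QRICH2 (0.970). CAMK4 was closest to PTPN3 (0.989), RAB27A (0.985) and PDGFA (0.982), and MYO6 to EGR2 (0.989), SERINC5 (0.987) and CHST6 (0.987). PTPN3 had means of 0.0579 CPM in untreated A2780 at 12 h, 0.841 CPM in treated A2780, 46.3 CPM in untreated A2780cis and 33.8 CPM in treated A2780cis, the same order as CAMK4.

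Whether the drug effect differed between lines could be tested for the neighbours. Over all tested genes the difference passed for 3.07% at 6 h and 23.7% at 12 h. PLK3 did not pass (log2 difference -0.05, SE 0.23, adjusted p = 0.972, edgeR, at 6 h and -0.04, SE 0.20, adjusted p = 0.929, at 12 h). For BTBD19, whose own values chose it, the difference is a description, 1.17 (SE 1.00) at 6 h and 1.47 (SE 0.88) at 12 h. SENP6 fell by more in A2780cis, with a difference of -0.64 (SE 0.15, adjusted p = 0.019, edgeR) at 6 h and -1.15 (SE 0.15, adjusted p = 9.17e-06) at 12 h. WDR36 did not pass at either time (adjusted p = 0.406 and 0.28, edgeR).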

How the data were processed

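Total RNA of 24 libraries, 8 groups of 3, was sequenced with a stranded kit. The authors trimmed reads, aligned them with STAR 2.5.2b to GRCh38.p7 and counted them per gene with featureCounts, and deposited the values as estimated counts without normalization, with 9.50% to 12.8% of entries not whole. The counting options listed by the study took exons, let a read count for several genes or sites, as fractions, and named no strand setting. Read layout is stated differently in the labels and the methods. Columns without a sample numbered 0.

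Counts were rounded to whole numbers, with ties going to the even number, and tested in 1 edgeR 4.0.16 quasi-likelihood fit over all 8 groups (R 4.3.3, TMM scaling, filterByExpr with a minimum count of 10, 20240 genes kept, 16 residual degrees of freedom), with Benjamini-Hochberg adjustment at 0.05. Residual spread was thus shared across groups. CPM used the same scaling. Lengths and neighbours came from GENCODE 44, which held 56948 of the 63299 genes, and promoters from RefSeq. The study counted on the Gencode annotation of GRCh38.p7, so these exon lengths may differ from those behind the counts. Levels compared between genes per exon length carry this limit. Counting intervals are exact binomial at 95% and cover counting error only, as reads without molecular identifiers are not independent molecules. SE is the Wald standard error of the log2 fold change from fitted means and the posterior quasi-dispersion, and none is given where a group had no counts. The alternatives were DESeq2 1.42.0, its size factors within edgeR, library size scaling, no filter, unrounded counts, the compared samples alone, no lncRNA and rRNA genes, Spearman correlation, other distances and limits for silent genes, a replicate block and leaving out each library. No libraries were duplicates (chi-square per gene at least 2.21).

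Named genes were the 5 genes, their 2 nearest coding genes on each side, genes between or overlapping, the listed relatives, and the 3 most correlated genes. The members and lists were chosen with earlier results of these data known. Replicate numbers were checked for pairing: deviations of same-numbered libraries correlated from -0.721 to 0.649, and only in A2780cis at 12 h did all 3 pairs exceed 0.1 (0.649, 0.338 and 0.104). The labels name no shared batch. 1 tested difference between the lines is not reported here.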

Additional observations from a re-analysis of the deposited data

Results flagged for a closer look

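Effects of opposite direction in the 2 lines marked CAMK4 and MYO6. Every treated A2780 library was higher and every treated A2780cis library lower, so the log2 FC in A2780cis minus that in A2780 was -1.97 at 6 h and -7.72 at 12 h for CAMK4, the latter against a group without counts and so no bound, and -1.70 at 6 h and -5.08 at 12 h for MYO6. These differences were not tested, because the genes were chosen on these values. Neighbours were marked by a tested difference between the lines. SENP6 differed by -0.64 at 6 h (adjusted p = 0.019, edgeR) and by -1.15 at 12 h (adjusted p = 9.17e-06). PIGV differed by 0.60 at 12 h (adjusted p = 0.0101, edgeR).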

How the results depend on the processing

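All 20 log2 FC of the 5 genes on treatment kept their sign under every alternative run. Of 278 such values 267 moved by less than the replicate spread and 11 by more. The 56 alternatives of the counts of upstream genes were within the limit. Leaving out each library in turn gave 3805 to 5987 genes called in A2780 at 6 h, 1846 to 5697 in untreated A2780 over time and 4985 to 8421 in untreated A2780cis over time. The lowest counts came without A2780 control 6 h replicate 1 (1846, and 2324 without A2780 control 12 h replicate 3) and without A2780cis control 12 h replicate 3 (4985). The cause was not tested. With the replicate number as a block, 6281 genes passed in A2780 at 6 h, 11315 in A2780 at 12 h, 6483 in A2780cis at 6 h and 12298 in A2780cis at 12 h. Only in the last of these did deviations of all 3 same-numbered pairs correlate above 0.1. That does not show that the numbers pair the cultures. The block changed no count of upstream genes. Shares of silent genes on at 12 h, with and without a gene upstream, moved in these settings. At 50 kb the share without was 0.0899% in A2780 and the share with was 0.261% in A2780cis. With no untreated count they were 0.0% and 0.0101% in A2780 and 0.152% and 0.0% in A2780cis. With 2 settings added after seeing the data, an untreated mean below 1 CPM gave 4.29% and 1.90% in A2780 and 5.82% and 1.75% in A2780cis, and coding genes alone gave 0.803% and 0.570% in A2780 and 1.06% and 0.206% in A2780cis. Few counts limit CAMK4 in A2780, the untreated levels of MYO6 in A2780 and every untreated level of BTBD19 and SFN.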
